A study of Mus musculus with 6 samples.

Results

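The X-linked cluster of miR-322, miR-503, miR-351 and miR-542 is a run of microRNA (miRNA) genes that lie close together on one strand of the mouse X chromosome. Its members were the 9 mature miRNAs on the array that carry the names mmu-miR-322, mmu-miR-322*, mmu-miR-503, mmu-miR-503*, mmu-miR-351, mmu-miR-542-5p, mmu-miR-542-3p, mmu-miR-450a-5p and mmu-miR-450a-3p, out of 690 mouse miRNAs. The species prefix is left out below. A star marks the arm of the hairpin that was thought to be the less used when the array was designed. Their signals were measured in cartilage cut from 3 zones of the femoral growth plate of C57BL/6 mice aged 12 days: the proliferative, the prehypertrophic and the hypertrophic zone. There were 2 arrays per zone, each hybridised with 100 ng of total RNA pooled from 5 growth plates. All mice were of this strain and age, and the labels name no treatment. Which animals gave which pool is not stated, so p-values measure only the spread between these samples, which may be technical. In such bulk tissue, fewer cells of a type and less RNA per cell cannot be told apart.

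miRNAs are short RNAs cut from both arms of a hairpin, and the bases near the 5′ end, the seed, guide them to target mRNAs. miR-322 is the mouse counterpart of human miR-424, and with miR-503 it belongs to the extended miR-15/16 family, which is known to lower cyclins and other proteins that drive the cell cycle. In the growth plate, chondrocytes leave the cell cycle as they pass from the proliferative zone through the prehypertrophic zone into hypertrophy, and in mouse cartilage miR-322 has been described to act on Mek1 mRNA in the MAP kinase pathway.

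The 7 hairpin genes of the cluster span 6353 bases of the minus strand, chrX:53047997-53054349 in the GRCm38.p6 assembly, in the order Mir322, Mir503, Mir351, Mir542, Mir450-2, Mir450-1 and Mir450b in the direction of transcription. The sequences below are RefSeq's, with the seed (bases 2 to 8) in capitals. They are shown because the seed sets which of the members could share targets, and because the arms that are set against each other below come from these hairpins.
miR-322: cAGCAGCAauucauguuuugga
miR-322*: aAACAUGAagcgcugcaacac
miR-503: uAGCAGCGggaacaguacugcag
miR-351: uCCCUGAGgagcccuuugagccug
miR-542-5p: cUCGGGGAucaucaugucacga
miR-542-3p: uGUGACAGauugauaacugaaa
The seed of miR-322 is held by 10 mature names in the RefSeq table of 1679, its own included and among them miR-15a, miR-15b, miR-16, miR-195a and miR-497a. miR-503 has a seed of its own that differs in its last base, and bases 2 to 7 are the same in 11 mature names, its own, miR-322 and the miR-15 names included. miR-351 has the seed of miR-125a-5p and miR-125b-5p, and miR-322* has a seed that no other name in the table holds. Relatives of miR-322 and miR-351 from other chromosomes, with the same seeds in capitals, show where the likeness ends.
miR-15b: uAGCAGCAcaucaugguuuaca
miR-16: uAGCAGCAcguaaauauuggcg
miR-125a-5p: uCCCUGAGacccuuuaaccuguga
miR-125b-5p: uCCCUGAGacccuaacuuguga
The hairpins of Mir322 (chrX:53054255-53054349) and Mir503 (chrX:53053984-53054054) are shown whole, with both mature arms in capitals, the 5′ arm first.
Mir322 hairpin: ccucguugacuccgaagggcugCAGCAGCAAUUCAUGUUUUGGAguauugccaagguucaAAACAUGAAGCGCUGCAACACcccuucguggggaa
Mir503 hairpin: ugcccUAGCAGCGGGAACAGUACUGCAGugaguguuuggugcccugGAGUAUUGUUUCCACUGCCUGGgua

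Signal is given as scaled signal, the background-subtracted brightness of a probe after each array was scaled to the 75th percentile of the same 342 bright probes, and a difference is given on the log2 scale. The brightness of a probe also depends on the probe, so no level of one miRNA is set against that of another. Between 24.2% and 27.9% of the miRNA spots on an array were well above background, the scanner software's call that a spot exceeds its local background. The 9 members had 28 of the 1928 probes on the array. Of these, 7 were well above background on all 6 arrays, 6 on some arrays and 15 on none. A miRNA was tested if, in some zone, both arrays had its brightest probe well above background, which 226 miRNAs did, 6 members among them. miR-503*, miR-450a-3p and miR-450a-5p were not. Among miRNAs known from other cell types, miR-126-3p, the defining miRNA of endothelium, was above background on no proliferative or prehypertrophic array and on both hypertrophic arrays. The other of the 2 endothelial miRNAs, miR-126-5p, was above background on no array. The summed scaled signal of 8 blood and marrow miRNAs, of which 3 were above background on any array, was 27.4 to 43.4 on the proliferative, 45.8 to 48.5 on the prehypertrophic and 270.2 to 294.1 on the hypertrophic arrays. In these sums negative signals were set to 0. A sum mostly follows its brightest miRNA, here miR-451 with 229.6 and 257.6 on the hypertrophic arrays. Of 5 skeletal muscle miRNAs 1 was above background, miR-208b, and the defining miR-206 and miR-1 were so on no array. Of 6 cartilage miRNAs 5 were above background, miR-140 and miR-140* among them, and their summed scaled signal was 10540 and 6574 on the proliferative, 6937 and 7037 on the prehypertrophic and 3972 and 4994 on the hypertrophic arrays. The brightest in this sum was miR-140*, with 7150 and 4169 on the proliferative, 4346 and 4334 on the prehypertrophic and 2425 and 3152 on the hypertrophic arrays. In the hypertrophic against the proliferative zone 1 of these 5 cartilage miRNAs was called, miR-675-3p, at least 1.82-fold lower (adjusted p = 0.0422), where 8.85% of all tested miRNAs were called lower. Without scaling of the arrays 0 miRNAs were called lower in this contrast, so this call did not hold there. The list's median log2 fold change was -0.78, against -0.002 for all tested miRNAs. Of the 5 values 4 were negative, and miR-455* had 0.37. The part of this list in the hypertrophic values was not tested. On the slide, the hypertrophic arrays shared row 1 and the prehypertrophic arrays row 2, and the proliferative arrays were split between the rows.

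**Figure D1:**
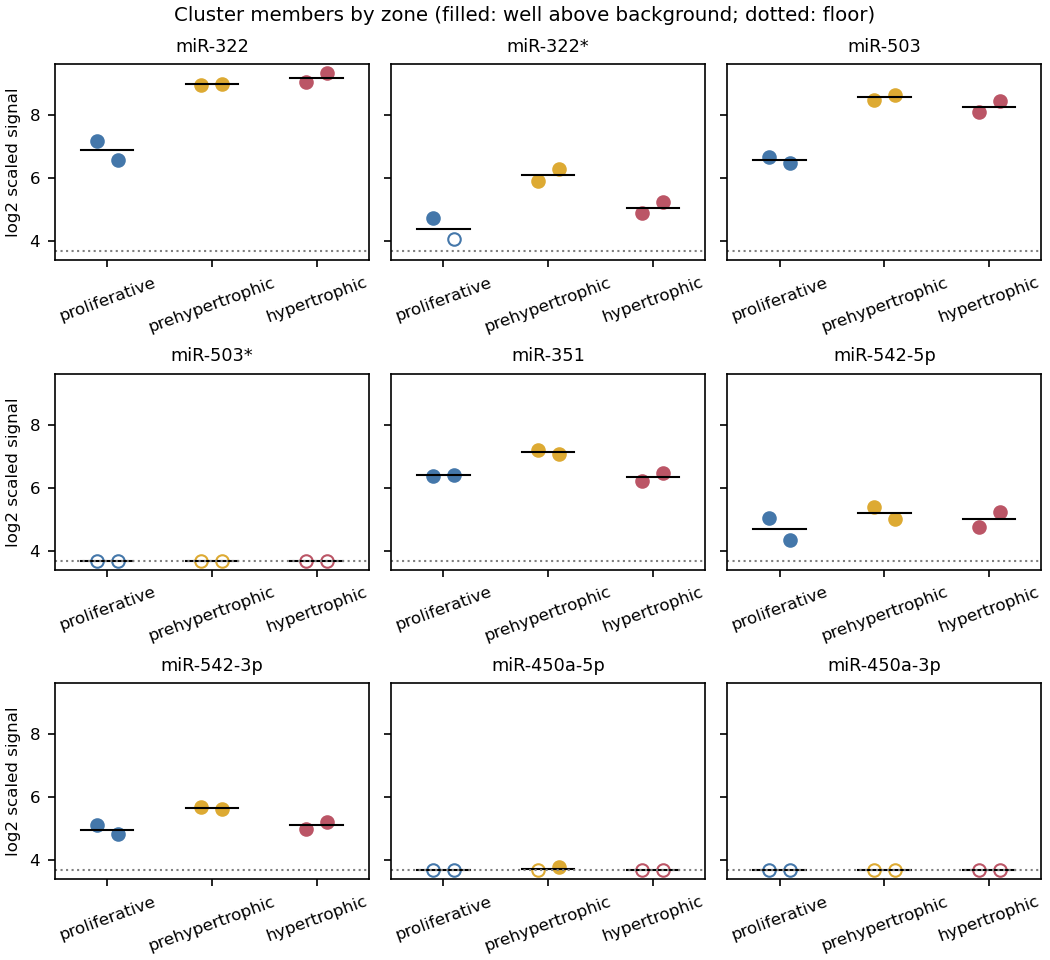
Log2 scaled signal (vertical axis) of the brightest probe of each of the 9 members, in the proliferative, prehypertrophic and hypertrophic zone. Each point is 1 of 6 arrays, filled where well above background, the bars are zone means of 2 arrays and the dotted line is the floor at 3.68. miR-322 and miR-503 sit higher on the 4 later arrays than on the 2 proliferative arrays. miR-503, miR-322*, miR-351 and miR-542-3p are highest on the 2 prehypertrophic arrays.

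miR-322, miR-503 and miR-322* were higher in the prehypertrophic than in the proliferative zone, and miR-322 and miR-503 also in the hypertrophic zone. miR-322 had a scaled signal of 145 and 96.4 on the proliferative, 497.1 and 513.8 on the prehypertrophic and 527.1 and 647.1 on the hypertrophic arrays. All 4 later arrays thus stood above both proliferative arrays, with no overlap. It was 4.27-fold higher in the prehypertrophic than in the proliferative zone (2.10 on the log2 scale, SE 0.28, limma adjusted p = 0.00152), at 8.98 ± 0.03 against 6.89 ± 0.42 on the log2 scale (SD, n = 2 each). It was 4.94-fold higher in the hypertrophic than in the proliferative zone (2.30 on the log2 scale, SE 0.28, adjusted p = 0.000627), at 9.19 ± 0.21 against 6.89 ± 0.42 (SD, n = 2 each). Between the hypertrophic and the prehypertrophic zone the log2 difference was 0.21 (95% confidence interval -0.42 to 0.84, adjusted p = 0.645), so neither a change nor its absence was shown. These contrasts share arrays, so they are not independent of each other. On the prehypertrophic arrays endothelial miR-126-3p was below 0 (-0.04 and -2.26 scaled units), and miR-451, an erythroid miRNA, had 29.0 and 27.1, against 14 and 9.91 on the proliferative arrays. On the hypertrophic arrays miR-126-3p had 35.2 and 47.9 and miR-451 had 229.6 and 257.6, and their part in the hypertrophic values was not tested. Of the other erythroid miRNAs, miR-144 was above background on no array, and miR-486 was above background on the second proliferative (18.4) and the first hypertrophic array (16.4) and on neither prehypertrophic array. The second probe of miR-322 had log2 fold changes of 2.15, 2.42 and 0.27 in the same 3 contrasts.

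miR-503, encoded about 0.3 kb downstream, had a scaled signal of 101.5 and 90.0 on the proliferative, 361.5 and 403.7 on the prehypertrophic and 272.5 and 352.1 on the hypertrophic arrays. Its 2 proliferative arrays were again the lowest, and the prehypertrophic pair lay just above the hypertrophic pair. It was 3.998-fold higher in the prehypertrophic than in the proliferative zone (1.999 on the log2 scale, SE 0.26, adjusted p = 0.00152) and 3.24-fold higher in the hypertrophic than in the proliferative zone (adjusted p = 0.00221, with 1.70 on the log2 scale and an SE of 0.26). The hypertrophic minus prehypertrophic difference was -0.30 (95% confidence interval -0.88 to 0.28, adjusted p = 0.466). Its second probe was not above background on the proliferative arrays and had 1.99 and 1.69 fitted against the floor there, and -0.30 for hypertrophic minus prehypertrophic. No probe of miR-503*, the other arm of the hairpin, was above background on any array, and its brightest probe ranged from -6.01 to 0.03 scaled units.

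miR-322*, the 3′ arm of the miR-322 hairpin, had a scaled signal of 26.6 and 16.8 on the proliferative, 60.3 and 78.1 on the prehypertrophic and 30.1 and 37.7 on the hypertrophic arrays. The prehypertrophic pair stood above the other 4 arrays, and the second proliferative array was not well above background. It was 3.25-fold higher in the prehypertrophic than in the proliferative zone (1.70 on the log2 scale, SE 0.30, adjusted p = 0.0117), at 6.10 ± 0.26 against 4.40 ± 0.46 on the log2 scale (SD, n = 2 each). The hypertrophic zone differed from the proliferative zone by 0.67 (SE 0.30, adjusted p = 0.191) and from the prehypertrophic zone by -1.03 (SE 0.30, adjusted p = 0.15). That last value was the lowest of all 226 tested miRNAs in the contrast, but it did not pass the threshold. Only 1 of its 3 other probes was above background, on 1 prehypertrophic array.

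In all, 3 of the 6 tested members were called higher in the prehypertrophic than in the proliferative zone, where 2.21% of all tested miRNAs were called higher and 0% lower. In the hypertrophic against the proliferative zone 2 of 6 were called, both higher, where 5.75% of all were called higher and 8.85% lower. In the hypertrophic against the prehypertrophic zone none of the 6 was called, where 1.33% of all were called higher and 0% lower. At an unadjusted p under 0.05 the members' counts were 5, 3 and 2 of 6, against 29, 59 and 33 of all 226 tested miRNAs. The members' median log2 fold change was 1.22, 0.49 and -0.42 in these contrasts, against -0.14, 0.00 and -0.04 over all tested miRNAs. The members share a locus, and both arms of miR-322 and of miR-542 share a hairpin, so they are not independent.

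These calls rested on few arrays. Without the first or without the second hypertrophic array, no member passed in either contrast with the proliferative zone: the adjusted p of miR-322 was 0.123 in both cases for the prehypertrophic minus proliferative contrast, within 0.000129 to 0.123 over its alternatives, and 0.0726 and 0.116 for hypertrophic minus proliferative, within 3.6e-05 to 0.172. For miR-503 these were 0.053 in both cases (within 0.000129 to 0.101), and 0.0708 and 0.116 (within 0.000471 to 0.172). The prehypertrophic call of miR-322* was also lost without the second proliferative array (adjusted p = 0.0672) and without the second prehypertrophic array (adjusted p = 0.0824), within 0.00496 to 0.206. The log2 fold change of miR-322 over all alternatives was 1.63 to 2.43 in the prehypertrophic and 1.84 to 2.79 in the hypertrophic zone against the proliferative zone. For miR-503 it was 1.48 to 2.37 and 1.25 to 2.18, and for miR-322* in the prehypertrophic zone 0.49 to 2.13, with the call held in 5 of 17 alternatives.

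Within slide row 2, miR-322 was higher by 2.39 on the log2 scale in the prehypertrophic than in the proliferative zone, and within row 1 by 2.01 in the hypertrophic than in the proliferative zone. miR-503 was higher by 2.09 and 1.61, and miR-322* by 2.03 and 0.34, in the same comparisons. With the row as a block, the contrasts of miR-322 had an adjusted p of 0.015 and 0.00893 and those of miR-503 of 0.0273 and 0.0159. The prehypertrophic contrast of miR-322* had 0.0351. No row held both later zones, so the difference between these zones and that between the rows cannot be told apart without leaning on the proliferative arrays. With the row as a block the hypertrophic minus prehypertrophic difference of miR-322 was -0.38 (adjusted p = 0.408). The sample titles carry numbers in a run of 13 to 15 and a run of 16 to 18, with 1 array of each zone per run, though no label calls a run a batch. Within these runs miR-322 was higher by 1.78 and 2.41 in the prehypertrophic than in the proliferative zone and by 2.16 and 2.45 in the hypertrophic than in the proliferative zone. For miR-503 these were 1.83 and 2.17, and 1.79 and 1.60.

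**Figure D2:**
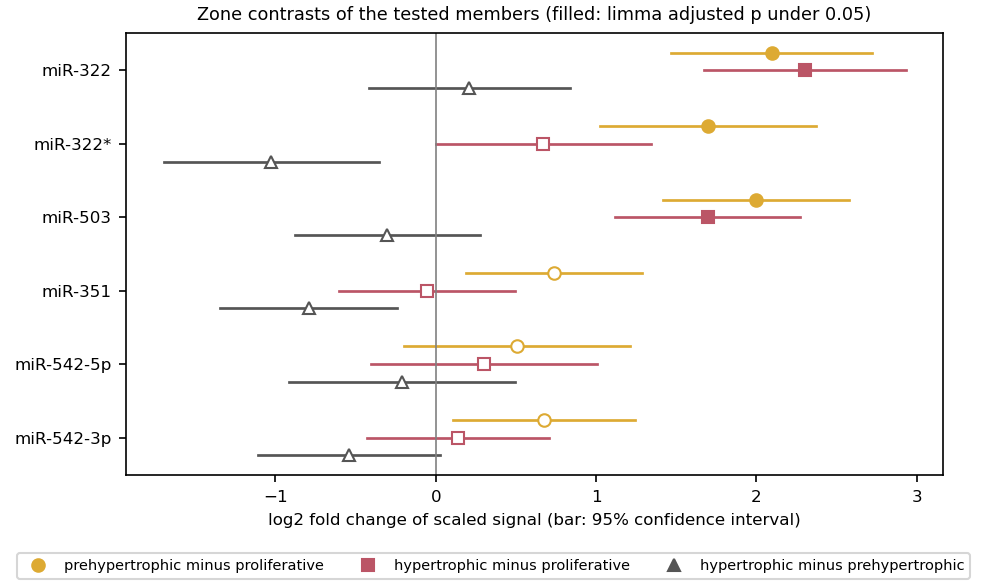
Log2 fold change (horizontal axis) of the 6 tested members in the 3 zone contrasts, with bars for the 95% confidence interval of the limma fit and filled symbols where the adjusted p was under 0.05. Filled symbols stand at 2.10 and 2.30 for miR-322, 1.999 and 1.70 for miR-503 and 1.70 for miR-322*, and all other symbols are open.

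miR-351, which has the miR-125 seed, had a scaled signal of 83.9 and 85.4 on the proliferative, 146.2 and 136.1 on the prehypertrophic and 75.2 and 88.2 on the hypertrophic arrays. The prehypertrophic pair was the highest, and the outer zones overlapped. No contrast of miR-351 passed: the log2 fold change was 0.74 (SE 0.25, adjusted p = 0.182) for prehypertrophic minus proliferative, -0.06 (SE 0.25, adjusted p = 0.925) for hypertrophic minus proliferative and -0.79 (SE 0.25, adjusted p = 0.191) for hypertrophic minus prehypertrophic, the fourth lowest of 226. Its second detected probe had 0.46, 0.004 and -0.46, all smaller in size. That probe lay near the floor, at 13.7 to 20.2 scaled units, and was not well above background on the second proliferative array. Little can therefore be read from the smaller sizes. The remaining probes of miR-351 were above background on no array.

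miR-542-3p, known in human cells to lower the apoptosis inhibitor survivin, had a scaled signal of 34.7 and 28.5 on the proliferative, 51.5 and 49.1 on the prehypertrophic and 31.9 and 37.6 on the hypertrophic arrays. Here too the prehypertrophic pair stood above the other 4 arrays, by a log2 fold change of 0.68 over the proliferative zone (SE 0.26, adjusted p = 0.26). The hypertrophic zone differed by 0.14 from the proliferative (adjusted p = 0.823) and by -0.54 from the prehypertrophic zone (adjusted p = 0.279). miR-542-5p, from the other arm, had 33.1 and 20.4 on the proliferative, 42.4 and 32.4 on the prehypertrophic and 27.1 and 37.8 on the hypertrophic arrays. All 3 zones of miR-542-5p overlapped, with log2 fold changes of 0.51, 0.30 and -0.21 and adjusted p of 0.632, 0.652 and 0.662 for prehypertrophic minus proliferative, hypertrophic minus proliferative and hypertrophic minus prehypertrophic. In the same contrasts the second probe of miR-542-3p had 0.61, 0.12 and -0.49. The second detected probe of miR-542-5p had 0.54, 0.19 and -0.35, and it lay at the floor on the second proliferative array.

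The miR-450 genes at the far end of the cluster were at the limit of detection. miR-450a-5p, which Mir450-1 and Mir450-2 both encode, had a scaled signal of 4.77 and 2.55 on the proliferative, 11.4 and 13.8 on the prehypertrophic and 6.03 and 10.5 on the hypertrophic arrays. It was well above background on the second prehypertrophic array alone, so no contrast was tested. miR-450a-3p, a name that does not say which of the 2 genes it belongs to, stayed between 6.01 and 7.96 scaled units by its brightest probe and was above background on no array. Their neighbour miR-450b-3p, which is not among the 9 but shares the seed of the 3′ arm of Mir450-1, had 10.1 and 5.73 on the proliferative, 20.6 and 23.1 on the prehypertrophic and 12.6 and 17.8 on the hypertrophic arrays. It was above background on both prehypertrophic arrays and on the second hypertrophic array. It was at least 1.46-fold higher in the prehypertrophic than in the proliferative zone (adjusted p = 0.205), a bound because no proliferative array was above background. With the authors' deposited table, which has a different floor (a total signal of at least 1), miR-450b-3p was called higher than in the proliferative zone in the prehypertrophic (2.87 on the log2 scale, adjusted p = 0.0036, within 0.0036 to 0.769 over its alternatives) and in the hypertrophic zone (2.07, adjusted p = 0.0189, within 0.0189 to 1). Both values are set against proliferative signal that was not above background, so their size cannot be read as a fold change. The bound sets the mean of the brighter zone against, on each dim array, the larger of the probe's own signal and the dimmest signal called well above background. No probe of miR-450b-5p was above background.

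Both prehypertrophic arrays lay above the other 4 arrays for 4 of the 6 tested members, miR-322*, miR-503, miR-351 and miR-542-3p, and for miR-450b-3p. For miR-450b-3p the order adds no evidence, because it passed the filter only through the prehypertrophic zone. Its proliferative arrays and its first hypertrophic array lay at the floor. Among all tested miRNAs, 7.08% had this order. miR-322, whose highest arrays were hypertrophic, and miR-542-5p did not. For miR-503 the order depended on the scaling. Its unscaled signal was 362 and 428 on the prehypertrophic arrays and 458 on the second hypertrophic array. No member passed for hypertrophic minus prehypertrophic, and these 2 zones lay in different slide rows, so the order is a description.

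**Figure D3:**
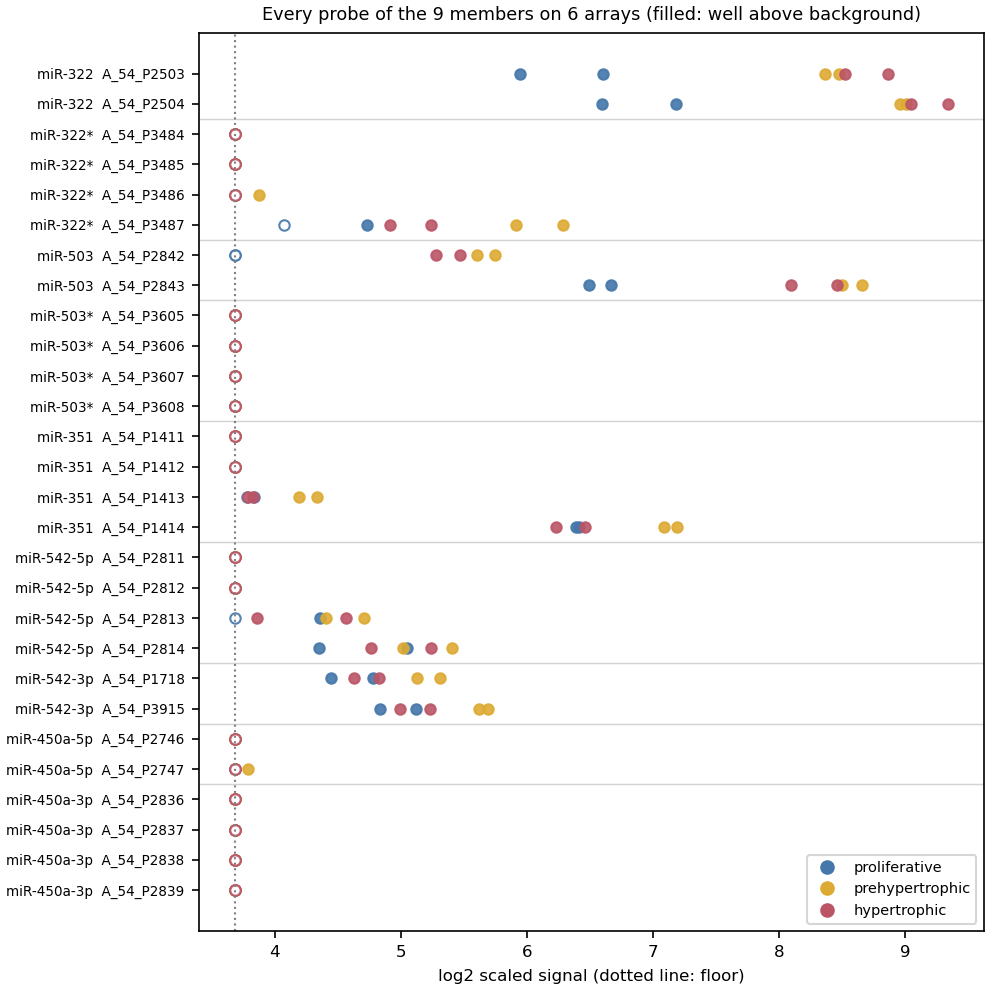
Log2 scaled signal (horizontal axis) of each of the 28 probes of the 9 members, 1 row per probe, with 1 point per array coloured by zone and filled where well above background. The 7 probes filled on all arrays belong to miR-322, miR-503, miR-351, miR-542-5p and miR-542-3p, and both probes of miR-322 and of miR-503 place the proliferative arrays lowest, while 15 probes lie at the floor (dotted line, 3.68) or below background throughout.

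To see which members followed miR-322, the log2 signal of each miRNA was taken minus that of miR-322 on the same array, which removes the scaling between arrays. Only the shift of this difference between zones can be read, not its level, and every value shares the error of miR-322. For miR-503 the difference was -0.51 and -0.10 on the proliferative, -0.46 and -0.35 on the prehypertrophic and -0.95 and -0.88 on the hypertrophic arrays. The first 2 zones overlapped and the hypertrophic pair was the lowest. The shift was -0.10 for prehypertrophic minus proliferative (95% confidence interval -0.68 to 0.49, adjusted p = 0.694) and -0.61 for hypertrophic minus proliferative (95% confidence interval -1.19 to -0.02, adjusted p = 0.0465). The hypertrophic call of miR-503 was lost without the second proliferative, either prehypertrophic or either hypertrophic array, with adjusted p of 0.173, 0.105, 0.105, 0.152 and 0.119, within 0.02 to 0.173 over its alternatives, of which 8 of 18 kept it.

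For miR-322*, the difference from miR-322 was -2.45 and -2.52 on the proliferative, -3.04 and -2.72 on the prehypertrophic and -4.13 and -4.10 on the hypertrophic arrays. The 2 arms of this hairpin thus ran apart in the hypertrophic zone, where no array overlapped another zone. The shift was -0.40 for prehypertrophic minus proliferative (95% confidence interval -0.94 to 0.15, adjusted p = 0.123) and -1.63 for hypertrophic minus proliferative (SE 0.22, adjusted p = 0.00129), a call kept under all 17 alternatives that gave a value. For hypertrophic minus prehypertrophic it was -1.24 (95% confidence interval -1.78 to -0.69), which did not pass over all miRNAs (adjusted p = 0.121). On the second proliferative array miR-322* was not well above background (16.8 scaled units, with the floor at 12.84). Both shifts from the proliferative zone therefore lean on a value near the floor. In the hypertrophic against the proliferative zone 95.6% of 225 miRNAs were called below miR-322, so falling behind it is not particular to this hairpin.

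miR-351 and both arms of miR-542 fell behind miR-322 in both later zones. In the prehypertrophic against the proliferative zone the shift was -1.36 for miR-351 (adjusted p = 0.00449), -1.42 for miR-542-3p and -1.59 for miR-542-5p (adjusted p = 0.00218 each). In the hypertrophic against the proliferative zone it was -2.36 for miR-351 (adjusted p = 0.000748), -2.17 for miR-542-3p (adjusted p = 0.000429) and -2.005 for miR-542-5p (adjusted p = 0.000899). These calls held under all 18 alternatives for each of the 3 miRNAs. In all, 3 of the 5 members set against miR-322 changed less than it did in the prehypertrophic contrast, where 97.8% of all other miRNAs did so, and 5 of 5 in the hypertrophic contrast, where 95.6% did so. Falling behind miR-322 was thus the case for nearly any miRNA, since miR-322 was near the top of both contrasts. For the members called below miR-322 it says nothing particular. In the prehypertrophic contrast the members' share of 3 of 5 lay below that of all other miRNAs. miR-503 and miR-322* were among the other 5 of 225 miRNAs in the prehypertrophic contrast, those whose change was not called below that of miR-322. For miR-322* this did not hold in 3 of 17 alternatives, where it was called below miR-322: the shift was -0.70 with 2 times the floor (adjusted p = 0.0411), -1.43 with the mean over probes (adjusted p = 0.00468) and -1.14 with normexp (adjusted p = 0.00103), within 0.00103 to 0.501 over its alternatives. In the hypertrophic against the prehypertrophic zone none of the 5 was called, with 0% of all miRNAs called below miR-322, and at an unadjusted p under 0.05 limma gave 3 of the 5 and 53 of 225 miRNAs.

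**Figure D4:**
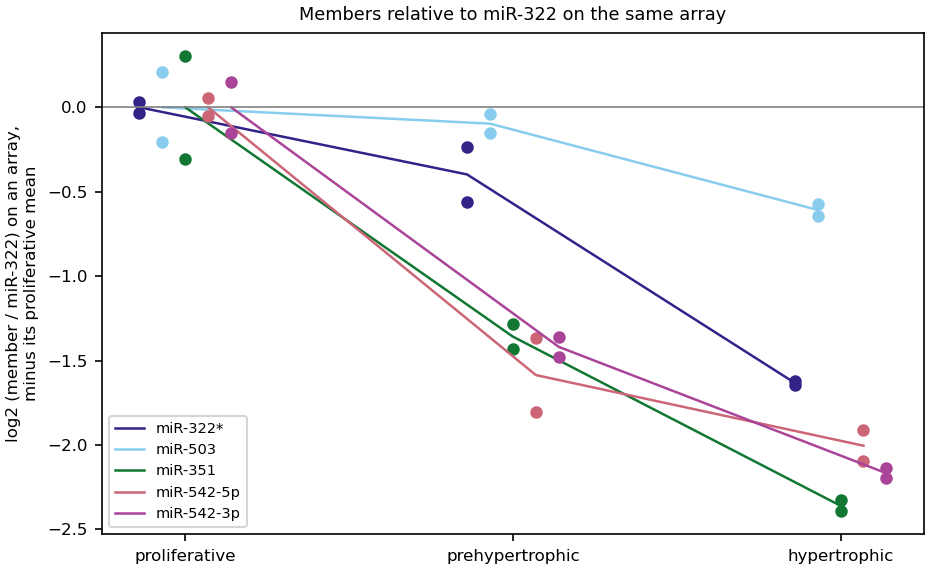
Log2 signal of 5 members minus that of miR-322 on the same array (vertical axis), set to 0 at the mean of each member's 2 proliferative arrays. Points are arrays and lines join zone means; miR-503 lies at -0.10 and -0.61 in the prehypertrophic and hypertrophic zone, miR-322* at -0.40 and -1.63, and miR-351, miR-542-5p and miR-542-3p at -1.36 or below in the prehypertrophic and -2.005 or below in the hypertrophic zone.

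Along the cluster, the members called in a contrast with the proliferative zone were miR-322, miR-322* and miR-503, which lie nearer to the start of the miR-322 hairpin than the other tested members. miR-503*, at 341 bases, was above background on no array and was not tested. The 5′ ends of miR-322, miR-322* and miR-503 lie 22, 60 and 300 bases from the start of the miR-322 hairpin, that of miR-351 at 1011 bases, those of miR-542-5p and miR-542-3p at 4875 and 4913 bases and that of miR-450b-3p at 6320 bases. The prehypertrophic minus proliferative log2 fold changes in this order were 2.10, 1.70, 1.999, 0.74, 0.51, 0.68 and 0.76, the last fitted from floor values. For hypertrophic minus proliferative they were 2.30, 0.67, 1.70, -0.06, 0.30, 0.14 and 0.24, the last again with floor values. miR-322* was not called there. With 7 points from one locus this order is a description.

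**Figure D5:**
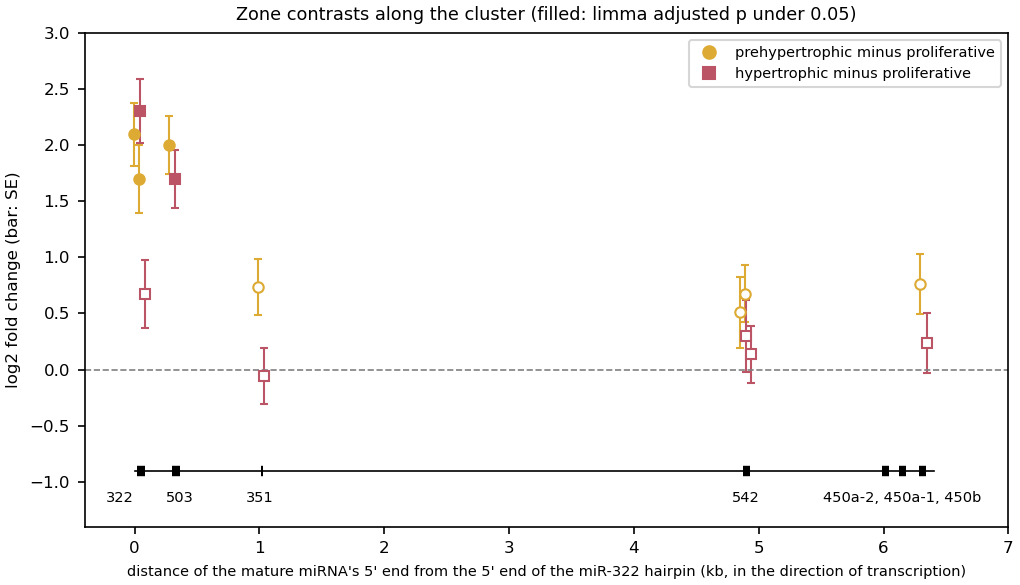
Log2 fold change (vertical axis, bars for the SE) of the 6 tested members and miR-450b-3p by the distance of the mature 5′ end from the start of the miR-322 hairpin (horizontal axis, kb), for prehypertrophic minus proliferative (circles) and hypertrophic minus proliferative (squares). Thick marks on the line near the bottom show where the mature arms lie. Filled symbols, with adjusted p under 0.05, occur within about 0.3 kb of the start, and the values from 1 kb onward lie between -0.06 and 0.76. The square of miR-322*, near the start, is open and lies within that range, at 0.67.

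By Pearson correlation of log2 signal over the 6 arrays, miR-503 was the third most like miR-322 among 225 tested miRNAs (r = 0.97, Spearman's rho = 0.54). miR-322* was 14th (r = 0.75), miR-542-5p 20th (r = 0.65), miR-450b-3p 21st (r = 0.64), miR-542-3p 23rd (r = 0.61) and miR-351 44th (r = 0.37). The 5 most alike outside the cluster were miR-22 (r = 0.99, rho = 0.94), miR-193b (r = 0.98, rho = 1), miR-181a-1* (r = 0.94, rho = 0.52), miR-27a (r = 0.90, rho = 0.83) and miR-19a (r = 0.88, rho = 0.83). The 6 arrays are 2 from each of 3 zones and share one slide, so these values mostly restate the zone order and describe it only. miR-22 had log2 signals of 7.09 and 6.83 on the proliferative, 8.15 and 8.38 on the prehypertrophic and 8.33 and 8.47 on the hypertrophic arrays, again with both proliferative arrays lowest. miR-181a-1*, the passenger arm of a miR-181a hairpin, lay at the floor on both proliferative arrays.

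Of the relatives of miR-322 by seed, 1 was called, in 1 contrast. Of miR-15a, miR-15b, miR-16, miR-195 and miR-497, all 5 tested, none was called in the prehypertrophic against the proliferative zone (median log2 fold change -0.25, against -0.14 for all tested miRNAs) or in the hypertrophic against the prehypertrophic zone (median -0.51, against -0.04). With 2.21% and 1.33% of all tested miRNAs called higher in these contrasts, a count of 0 among 5 is near that share and is no result about the list. In the hypertrophic against the proliferative zone 1 was called, lower, where 8.85% of all were (median -0.46, against 0.00): miR-15b had a scaled signal of 57.7 and 82.1 on the hypertrophic arrays, against 236.4 and 125.9 on the proliferative arrays, and fell by 1.33 on the log2 scale (SE 0.34, limma adjusted p = 0.0325). The highest value of the list there was 0.57, below the 2.30 of miR-322. Of the pair that shares the seed of miR-351, miR-125a-5p fell by 1.18 on the log2 scale in the hypertrophic against the proliferative zone (SE 0.25, with adjusted p = 0.0138) and miR-125b-5p had -0.24 (adjusted p = 0.68). Neither was called in the other contrasts. Over all tested miRNAs, the lower calls for hypertrophic minus proliferative depended on the setting. There were 20 in the values reported, 1 with median scaling, 1 where all probes set the percentile and 0 with no scaling. The calls of miR-15b and miR-125a-5p thus did not hold with no scaling.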

How the data were processed

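Per the file headers, Feature Extraction 10.7.3.1 had turned each of the 6 one-colour scans into a background-subtracted intensity per spot (gProcessedSignal), outlier flags and a flag for spots well above background. Per the labels, the slide was designed from miRBase version 14 and the authors used GeneSpring. The authors also deposited a table of log2 values. Set against the scanner files, each column was the log2 of Feature Extraction's total signal for a miRNA (at least 1), less a constant per array, so its scale, direction and centring are settled. The 2 proliferative columns had medians of -4.399 and -4.254, the 2 prehypertrophic columns of -4.46 and -4.455 and the 2 hypertrophic columns of -4.689 and -4.943.

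Intensities of unflagged spots were averaged per probe and scaled to the 75th percentile of 342 probes well above background on all arrays. Signals below 12.84 scaled units, the dimmest signal called well above background on a typical array (median of 6), were raised to that floor before log2 was taken (3.68). The brightest probe stood for each miRNA. Outlier and control spots were left out, and 0 spots were saturated. Of 690 miRNAs, 226 were tested with limma 3.58.1 in R 4.3.3, with zone as the factor over all 6 arrays, 3 residual degrees of freedom (prior 7.19), and Benjamini-Hochberg adjustment within a contrast at 0.05. Differences from miR-322 were fitted the same way over 225 miRNAs (prior 2.32). Confidence intervals are of unadjusted width. The number of arrays limits the precision.

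Alternatives were other scalings, background by normexp with offset 50, the deposited table, the floor, filters, probes, blocks and leaving out arrays. Normexp was run on the median signal because the files used here hold no mean-signal column. Named were all members, their neighbours in the cluster, the lists by seed and the 5 miRNAs most correlated with miR-322. Members and lists were chosen with earlier results of these data known. Names were matched to RefSeq sequences (GRCm38.p6) by alias, 11 of 11 for the cluster.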

Additional observations from a re-analysis of the deposited data

How the results depend on the processing

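Over 18 alternative settings, fitted to each result where it gave a value, miR-322 stayed past the threshold in 13 of 19 fits, its other probe included, for prehypertrophic minus proliferative and in 16 of 19 for hypertrophic minus proliferative. For miR-503 these were 14 and 16 of 19, and for miR-322* 5 of 17 in the prehypertrophic contrast. None of these reversed. Where all calls of members in the prehypertrophic contrast were lost, the prior degrees of freedom of the fit, 7.19 in the values reported, were 1.86 without the first or the second hypertrophic array, 2.02 with no scaling, 0.52 with 2 times the floor and 0.06 with no filter. They were also low, at 1.73, with quantile normalization, where 2 members were still called. With the mean over probes they were 0.82, and 1 member was still called. Why calls were lost was not tested. The median over all tested miRNAs shifted by 0.30, 0.46 and 0.14 with no scaling, by 0.13 and 0.11 with median scaling in the contrasts with the proliferative zone, by 0.19 and -0.17 with the deposited table and by 0.12 and -0.12 where all probes set the percentile for prehypertrophic minus proliferative and hypertrophic minus prehypertrophic, by 0.10 with quantile normalization for prehypertrophic minus proliferative and by -0.17 with normexp for hypertrophic minus proliferative.

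For prehypertrophic minus proliferative, 5 miRNAs passed, 3 of them members. The count over all miRNAs was 3 with median scaling, with probes above background on all 6 arrays and with all probes setting the percentile, 2 with the mean over probes, 1 with no scaling, 0 with 2 times the floor and with no filter, 10 (all higher) with the deposited table and 0 to 10 leaving out 1 array. Without the second proliferative array the 10 were 3 higher and 7 lower, against 5 higher and 0 lower. The members' count was 0 with no scaling, with 2 times the floor and with no filter, 1 with the mean over probes and 0 to 3 leaving out 1 array. With no filter, which adds members not above background, 6 members differed from miR-322, against 3.

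For hypertrophic minus proliferative, 33 miRNAs passed, 2 of them members. The count was 11 (10 higher, 1 lower) where all probes set the percentile, 19 (11 and 8) with quantile normalization, 15 (15 and 0) with no scaling, 8 (5 and 3) with 2 times the floor, 1 with no filter, 12 (11 and 1) with median scaling, 13 (8 and 5) with the mean over probes, 20 (13 and 7) with the deposited table and 1 to 45 leaving out 1 array. The members' count was 0 with no filter and 0 to 2 leaving out 1 array. For hypertrophic minus prehypertrophic, 3 passed, 0 of them members. The count was 5 with no scaling and with the run of title numbers as a block, 1 with 2 times the floor, with no filter, with probes above background on all 6 arrays, with the mean over probes and with the slide row as a block, and 1 to 3 leaving out 1 array.

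Signs turned for values that had not passed, with 1 exception named below. For hypertrophic minus proliferative, miR-351 had 0.104 with quantile normalization, 0.426 with no scaling, 0.057 with median scaling, 0.004 by its other probe and -0.17 to 0.059 leaving out 1 array. With normexp, miR-322* had -0.011, miR-542-5p -0.12, miR-542-3p -0.13 and miR-450b-3p -0.14, and in the prehypertrophic contrast miR-542-5p had -0.008. With the slide row as a block, miR-542-5p had -0.049, miR-542-3p -0.005 and, for hypertrophic minus prehypertrophic, miR-322 -0.38. Leaving out 1 array gave -0.049 to 0.65 for miR-542-5p and -0.005 to 0.28 for miR-542-3p in the hypertrophic against the proliferative zone, and -0.45 to 0.029 for miR-542-5p against the prehypertrophic zone. Relative to miR-322 in the prehypertrophic contrast, miR-503 had 0.064 and miR-450b-3p, whose main value of -1.33 had passed, 0.57 with the deposited table, and miR-503 had -0.30 to 0.11 leaving out 1 array. The cause was not tested. Where all arrays compared lay at the floor (miR-450b-3p and miR-322* in some settings), no value was given. No label pairs arrays across zones. With the run of title numbers as a block, 3 members passed in the prehypertrophic and 2 in the hypertrophic contrast with the proliferative zone, with adjusted p of 0.00767 and 0.00428 for miR-322, 0.00767 and 0.00702 for miR-503 and 0.0444 for miR-322* in the prehypertrophic contrast.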
